A study of Mus musculus with 6 samples.

Results

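The miRNAs described here are the 5 mature products mmu-miR-23a-3p, mmu-miR-27a-3p, mmu-miR-23b-3p, mmu-miR-27b-3p and mmu-miR-24-3p, chosen by their probe names from the 1963 mouse miRNA probes on the array. They were measured in whole lungs of C57Bl6 mice, with 3 wild-type (WT) mice given saline, called saline mice here, and 3 WT-BLM mice given bleomycin (BLM, a cytotoxic drug used to induce lung fibrosis) at 1.5 U/kg body weight into the trachea. Lungs were taken at day 21, and per the study's methods the mice were 8 to 10 weeks old. The methods call the WT mice littermates without saying of which mice. Each lung was hybridized to 1 array with 1 dye, and none of the mice compared here carried a transgene. Because whole lung was used, fewer cells that make a miRNA and less miRNA per cell cannot be told apart.

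MiRNAs are short RNAs that pair with target mRNAs mainly through the seed, bases 2 to 8, and lower their translation or stability. In mammals, 2 paralogous clusters each give rise to a miR-23, a miR-27 and a miR-24 from one primary transcript. They are abundant in endothelial cells and fibroblasts, and are known for roles in blood vessel growth, smooth muscle and blood cell differentiation.

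In RefSeq annotation of the mouse assembly GRCm38.p6, the a cluster lies on the plus strand at chr8:84208518-84208921, a stretch of 404 bases that holds Mir23a, Mir27a and Mir24-2. The b cluster holds Mir23b, Mir27b and Mir24-1 in the same order over 792 bases, at chr13:63300484-63301275 on the plus strand, within the bounds of Aopep, a gene for an aminopeptidase. No protein-coding gene of that table overlaps the a cluster. The mature sequence of miR-24-3p stands in the hairpins of both Mir24-1 and Mir24-2, so that its probe reads both clusters together. The array's target sequences of the 5 miRNAs are shown because they set which members a probe can tell apart, with the seed in capitals:
miR-23a-3p: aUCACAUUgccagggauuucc
miR-23b-3p: aUCACAUUgccagggauuacc
miR-27a-3p: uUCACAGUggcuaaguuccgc
miR-27b-3p: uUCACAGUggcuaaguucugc
miR-24-3p: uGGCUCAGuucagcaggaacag

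Of these, 4 equal the RefSeq mature sequence, and for miR-23b-3p only the array's own sequence was used. The a and b members of a family share the whole seed. Counted from the 5′ end with the a member's base first, miR-23a-3p and miR-23b-3p differ by U19A only, and miR-27a-3p and miR-27b-3p by C19U only, out of 21 bases each. Probes for sequences so alike can bind each other's miRNA, and this was not tested on the arrays. The seeds of miR-23 and miR-27 differ from each other by U7G, with the base of miR-23a-3p first. No other of the 1963 array miRNAs carried the seed of miR-23 or that of miR-27, while 6, miR-24-3p included, carried that of miR-24.

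All 5 miRNAs were detected on all 6 arrays. A probe was called detected when the mean of its 2 spots lay above the median of the 800 empty spots plus 3 of their SDs, a limit of at most 178 above that median. The members' signal above the empty spots was 6.40 to 350 times this limit. Their paired spots were close, with a median difference of 0.12 on the log2 scale over 30 pairs. The exception was miR-27b-3p in WT-BLM mouse 1, where the spots read 2193 and 977 above the empty spots. The empty spots were noisier on the arrays of saline mouse 3 and WT-BLM mouse 1, with an SD of 59.3 and 45.2 against 8.01 to 18.1 on the others, and 132 to 365 probes were detected per array. Probes detected on at least 3 arrays, 275 in all, were tested together.

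Of the marker lists for lung, 4 of 4 smooth muscle and mesenchyme, 5 of 5 epithelial, 4 of 4 leukocyte, 1 of 4 red cell and 1 of 2 endothelial probes were detected on all 6 arrays, and miR-126a-5p, the other endothelial marker, on 3. The liver and neuron markers (miR-122-5p, miR-124-3p and miR-9-5p) were each detected on 1 array at most. No marker passed the test (limma adjusted p = 1 for each one tested). The difference between WT-BLM and saline lungs was 0.76 on the log2 scale for endothelial miR-126a-3p, against 0.61 in the authors' intensities, and its spots in saline mouse 1 read 19618 and 4617 above the empty spots. The median difference of the smooth muscle and mesenchyme list was -0.11. The authors' intensities of the endothelial list summed to 6144 to 19652 in saline and 16301 to 23476 in WT-BLM lungs, and the part of this in the members' values was not tested. Striated muscle markers differed between mice. In the authors' normalized intensities their sum over 4 probes was 719 to 10850 in saline and 1026 to 1696 in WT-BLM lungs. The highest miR-1a-3p, 7773, was that of saline mouse 2, against 689 to 2281 in the other mice.

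No member of either cluster was called different between WT-BLM and saline lungs. After Benjamini-Hochberg adjustment in limma, 0 of the 5 and 0 of all 275 tested miRNAs (0%) passed the threshold of 0.05. At an unadjusted p under 0.05 there were again 0 of 5, against 5 of 275, or 1.82%, over all tested miRNAs. For none of the 5 were the groups free of overlap, while they were for 4.73% of the 275. With 3 mice per group, the smallest p of an exact permutation test, two-sided, is 0.10. The mean was lower in WT-BLM lungs for 3 of 5 members and for 43.6% of all tested miRNAs. The median difference in log2 intensity was -0.095 over the members and 0.044 over all 275, and in the authors' intensities -0.21 and 0.039. Neither the count nor the sign of the median was stable. With the first spot of each probe 2 of 5 members were lower, against 43.6% of all tested miRNAs, with a median of 0.041 over the members. The count was 4 of 5 with array weights (47.3% of all tested), without saline mouse 3 (52.7%) and without WT-BLM mouse 2 (47.3%). Without WT-BLM mouse 3 only 1 of 5 members was lower, against 48.7% of all tested miRNAs, with a median of 0.10 over the members, and in the authors' intensities 2 of 5 were lower, against 46.2%, with a median of 0.0091. Scaling to the 75th percentile left 3 of 5 members lower, while the share of all tested miRNAs was 78.5% with the percentile of probes detected on all arrays and 29.5% with that of all probes.

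**Figure D1:**
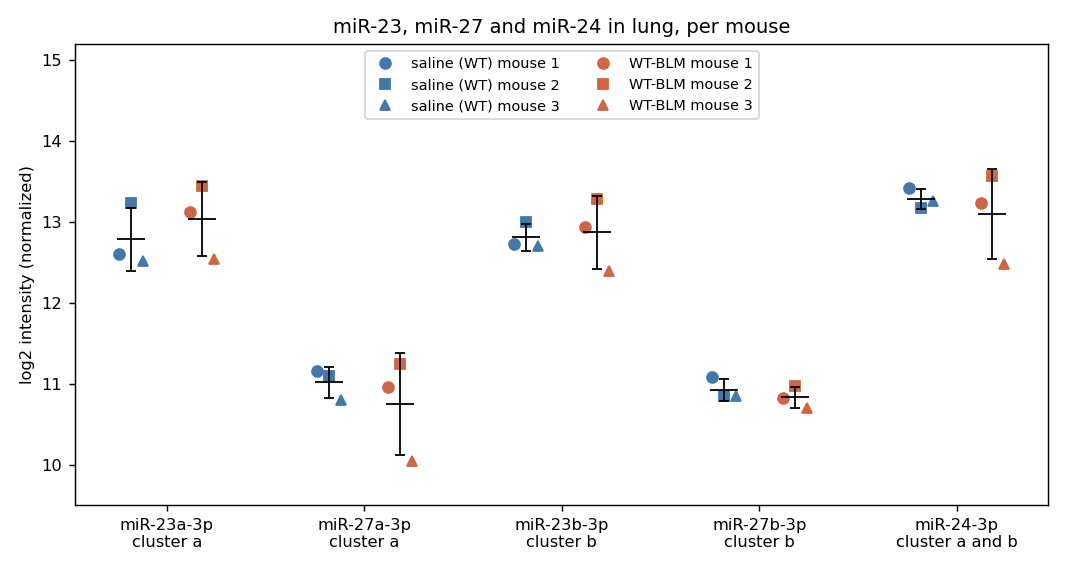
Normalized log2 intensity of the 5 miRNAs in each lung (y axis, log2 scale), with 1 point per mouse, and mean ± SD of 3 mice per group as bars. Saline and WT-BLM mice overlap for every miRNA, and WT-BLM mouse 3 is the lowest point for 4 of the 5. Heights of different probes are not comparable, since each probe binds with its own strength.

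In the a cluster, mmu-miR-23a-3p, a miRNA known in endothelial and muscle cells, had a log2 intensity of 12.61, 13.24 and 12.52 in saline mice 1, 2 and 3 and of 13.13, 13.45 and 12.55 in WT-BLM mice 1, 2 and 3. The means were 12.79 ± 0.39 (SD, n = 3) and 13.04 ± 0.46, a difference of 0.25 on the log2 scale (standard error 0.32, limma adjusted p = 1), or 1.19-fold. The 95% interval, 0.71-fold to 2.00-fold, leaves room for a change in either direction. The difference was 0.055 without WT-BLM mouse 2, 0.50 without WT-BLM mouse 3 and 0.054 with arrays weighted by their quality. The groups overlapped, with saline mouse 2 above all but 1 of the WT-BLM mice (exact permutation test, two-sided p = 0.60).

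The other a cluster member, mmu-miR-27a-3p, is known for repressing regulators of fat cell and vessel growth. Its log2 intensity was 11.16, 11.10 and 10.81 in saline mice and 10.96, 11.25 and 10.05 in WT-BLM mice. WT-BLM mouse 3 was the lowest of all 6 and WT-BLM mouse 2 the highest. The means were 11.02 ± 0.19 (SD, n = 3) and 10.75 ± 0.63, so that the level was lower by a difference of -0.27 (standard error 0.34, limma adjusted p = 1), within an interval of 0.48-fold to 1.43-fold. Without WT-BLM mouse 3 the difference was 0.078, whereas in the authors' normalized intensities it was -0.053 without that mouse.

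In the b cluster, mmu-miR-23b-3p gave a log2 intensity of 12.73, 13.01 and 12.70 in saline and of 12.94, 13.29 and 12.39 in WT-BLM mice. The WT-BLM mice thus spanned the whole range of the saline mice. The difference of the means was 0.064 (standard error 0.28, limma adjusted p = 1), with an interval of 0.66-fold to 1.65-fold, and it turned to -0.15 without WT-BLM mouse 2 and to -0.010 without saline mouse 3.

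The probe of mmu-miR-27b-3p varied least. Its log2 intensity was 11.09, 10.85 and 10.85 in saline and 10.82, 10.97 and 10.71 in WT-BLM mice. The SD within groups was 0.14, and only 4% of all 275 tested miRNAs had a smaller one. The difference was -0.095 (standard error 0.21, limma adjusted p = 1), with an interval of 0.67-fold to 1.32-fold, the narrowest of the 5. The difference depends on which spots are read, since it was 0.16 with the first spot of each probe and -0.35 with the second. The standard error with these single spots was 0.30 and 0.28, against 0.30 and 0.29 for miR-23b-3p. The small spread thus depends on averaging the spots. With the discordant spots of WT-BLM mouse 1 left out the difference was -0.089 (standard error 0.24).

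The mature mmu-miR-24-3p, which both clusters encode and which is known for restraining cell cycle and apoptosis genes, had a log2 intensity of 13.42, 13.17 and 13.26 in saline and of 13.23, 13.57 and 12.48 in WT-BLM mice. The highest and the lowest of the 6 values were those of WT-BLM mice 2 and 3. The means were 13.28 ± 0.13 (SD, n = 3) and 13.10 ± 0.56, a difference of -0.19 (standard error 0.31, limma adjusted p = 1) within an interval of 0.53-fold to 1.45-fold. Without WT-BLM mouse 3 it was 0.10.

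The authors' own normalized intensities gave the same signs for all 5, with 3 lower in WT-BLM lungs, against 44% of all tested miRNAs. In that table miR-23a-3p was 6524 ± 2023 (SD, n = 3) in saline and 7923 ± 2457 in WT-BLM lungs. For miR-27a-3p the values were 2144, 2305 and 1565 against 1588, 2283 and 885. The levels of miR-24-3p were 10349, 8634 and 9499 in saline mice and 8404, 10802 and 5201 in WT-BLM mice. On the log2(value + 50) scale the differences were 0.27 for miR-23a-3p, -0.41 for miR-27a-3p, 0.12 for miR-23b-3p, -0.21 for miR-27b-3p and -0.28 for miR-24-3p. The limma adjusted p was 0.989 for each of them, and the groups overlapped for all 5.

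**Figure D2:**
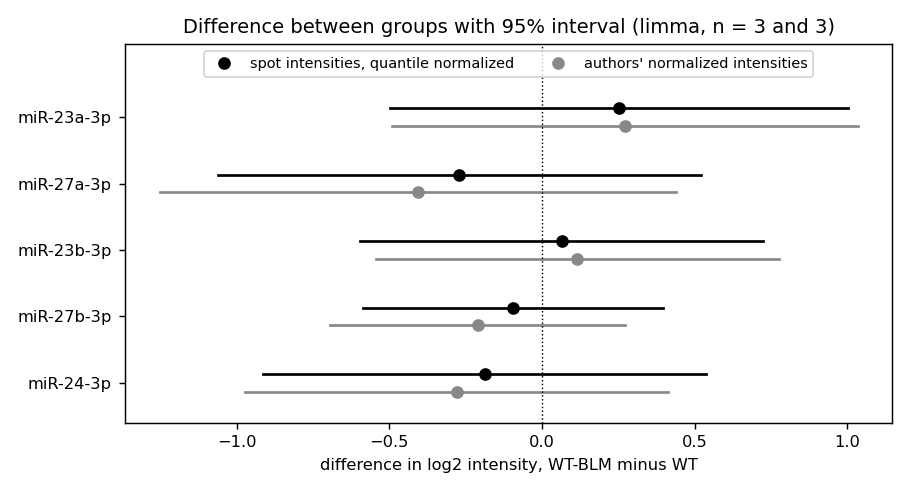
Difference in log2 intensity between WT-BLM and saline lungs (x axis) for the 5 miRNAs (rows), with 95% intervals from limma. Black marks the normalized spot intensities and grey the authors' normalized intensities. Every interval spans 0, and the points lie between -0.41 and 0.27.

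The a and b members were next compared within each mouse, to ask whether BLM moved them unequally. On 1 array the a probe minus the b probe gives a log2 value that cancels what the array shares. It does not give their relative abundance, because the 2 probes bind with different strength. Probes so alike can also bind each other's miRNA, which was not tested, so that unequal movement may be understated. For miR-23a-3p minus miR-23b-3p this value was -0.12, 0.23 and -0.18 in saline mice and 0.18, 0.16 and 0.15 in WT-BLM mice. The 3 WT-BLM mice agreed closely, whereas saline mouse 2 stood above them and the other saline mice below. The change was 0.19 (standard error 0.13, 95% interval -0.17 to 0.54; exact permutation test, two-sided p = 0.40). Without saline mouse 2, the mouse with the highest miR-1a-3p, it was 0.32 and the groups no longer overlapped, with an exact permutation p of 0.10 that is the smallest 2 against 3 mice allow. With any one of the other mice left out it lay between 0.13 and 0.20, and the groups overlapped. The part of that mouse's muscle markers in the result was not tested.

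For miR-27a-3p minus miR-27b-3p the values were 0.072, 0.26 and -0.047 in saline and 0.14, 0.27 and -0.66 in WT-BLM mice. WT-BLM mouse 3 stood apart, and the others overlapped. The change was -0.18 (standard error 0.30, 95% interval -1.02 to 0.67; exact permutation test, two-sided p = 0.90), and 0.11 without WT-BLM mouse 3. It also moved with the spots read, to -0.45 with the first spot of each probe, 0.095 with the second and -0.29 with discordant spots left out. In the authors' intensities without WT-BLM mouse 2 it was -0.44 and the groups did not overlap (exact permutation test, two-sided p = 0.10, the smallest possible), though WT-BLM mouse 1 at -0.043 lay barely below the lowest saline mouse at -0.041. These were the 2 pairs compared.

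**Figure D3:**
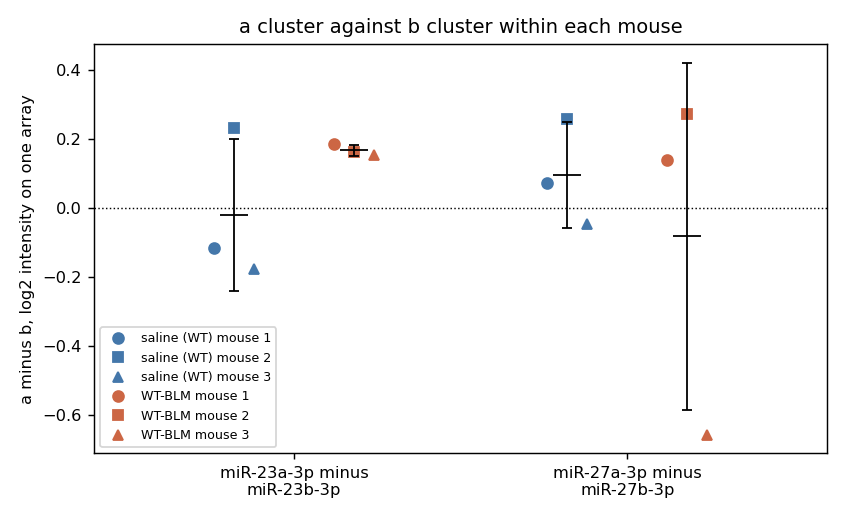
Log2 intensity of the a cluster probe minus that of the b cluster probe on the same array (y axis), for miR-23 and miR-27, with 1 point per mouse and mean ± SD of 3 mice per group. The 3 WT-BLM mice lie between 0.15 and 0.18 for miR-23, and WT-BLM mouse 3 lies at -0.66 for miR-27.

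A pattern among mice, looked for after the values were seen, was shared by the members. Among WT-BLM mice, mouse 2 was the highest and mouse 3 the lowest for 5 of 5 miRNAs, an order that 11.3% of the 275 tested miRNAs had. It held for 5 of 5 in the authors' intensities (14.9% of all tested) and with cyclic loess (16%). It held for 4 of 5 without normalization, where 40% of all tested miRNAs had it, and for 0 of 5 after scaling to the 75th percentile of the probes detected on all arrays (8%). WT-BLM mouse 3 was the lowest of all 6 mice for 4 of 5 members, against 4.73% of the tested miRNAs. It was so for 4 of 5 in the authors' intensities (5.45% of all tested), for 5 of 5 after that scaling (19.6%) and for 2 of 5 without normalization (13.1%). The saline mice showed no such common order. The spread was larger in WT-BLM than in saline mice for 4 of 5 members and for 33.1% of all tested miRNAs, with miR-27b-3p as the exception, but without normalization it was so for 2 of 5, against 43.6%. For miR-27b-3p, the value of WT-BLM mouse 1 averages 2 spots that lie 1.45 apart on the log2 scale. That is more than the WT-BLM mice differ, at 10.71 to 10.97. The place of miR-27b-3p in these orders, and its small spread, thus depend on the spot read. These shares describe 6 mice and are not a test.

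Over the 6 arrays, miR-23a-3p followed miR-23b-3p with Pearson's r = 0.92, and miR-27a-3p followed miR-24-3p with r = 0.95. The other a and b pair, miR-27a-3p with miR-27b-3p, had r = 0.78. In the authors' intensities these r were 0.97, 0.89 and 0.79, in that order. Within a cluster r was 0.60 for miR-23a-3p with miR-27a-3p and 0.43 for miR-23b-3p with miR-27b-3p (0.56 and 0.19 in the authors' intensities). With miR-24-3p, r was 0.82 for miR-27b-3p, 0.78 for miR-23b-3p and 0.48 for miR-23a-3p (0.66, 0.58 and 0.36 in the authors' intensities). Across clusters it was 0.83 for miR-27a-3p with miR-23b-3p and 0.14 for miR-23a-3p with miR-27b-3p (0.71 and 0.072 in the authors' intensities). These correlations are descriptions over 6 points that share array, background and normalization. The a and b probes of a family can also bind each other's miRNA, and the part of this in their r was not tested. Among 270 other tested miRNAs, those most like miR-23b-3p were miR-1839-5p (r = 0.92) and miR-22-3p (r = 0.90), and in the authors' intensities miR-22-3p came first, with r = 0.97. The miRNAs most like miR-27b-3p were miR-144-5p (r = 0.81) and miR-208a-3p (r = 0.79), which were also the first 2 in the authors' intensities. Those most like miR-23a-3p were miR-1949 and miR-3960, with r of 0.92 and 0.89. In the authors' intensities miR-3960 kept an r of 0.91 and ranked 3 of 270, whereas miR-1949 fell to 0.59 and rank 31. For miR-27a-3p they were miR-5099 and miR-6239 (r = 0.78 and 0.76), and for miR-24-3p they were miR-199b-5p and miR-5099 (r = 0.81 and 0.76). In the authors' intensities miR-5099 had r of only 0.011 with miR-27a-3p, and miR-199b-5p had -0.31 with miR-24-3p, so that these likenesses were not shared by both sets of values.

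The other arms of the hairpins tell the Mir24 genes apart, since their mature sequences differ after the first 16 bases. They are shown for that reason, with the seed in capitals:
miR-24-2-5p: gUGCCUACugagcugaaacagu
miR-24-1-5p: gUGCCUACugagcugauaucagu

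The product of the a cluster, miR-24-2-5p, was detected on all 6 arrays and was the only one of 9 other arms and strand partners to be tested. Its log2 intensity was 8.42, 8.52 and 8.61 in saline and 8.35, 8.81 and 8.43 in WT-BLM mice, with a difference of 0.013 (standard error 0.22, limma adjusted p = 1) and an interval of 0.70-fold to 1.45-fold. The b cluster product miR-24-1-5p was detected on no saline array and on 2 of 3 WT-BLM arrays. This does not show a rise, because its authors' intensities were 10, 25 and 55 for saline against 36, 30 and 27 for WT-BLM mice. The highest, 55, came from saline mouse 3, whose array had noisy empty spots. The passenger strands miR-23a-5p and miR-27b-5p were likewise detected on 2 of 3 WT-BLM arrays only. For miR-23a-5p in WT-BLM mouse 3 the call rests on 1 spot, with readings of 65.1 and 5.56 above the empty spots and an authors' intensity of 3. In WT-BLM mouse 1 the spots of miR-27b-5p read 20.5 and 266 above the empty spots, so that its authors' intensity of 140 there rests on 1 spot, against 9 to 25 in the other mice. No fold is given for these 3 arms, since the mean in WT-BLM lungs did not exceed the lowest signal among detected probes on the saline arrays. Neither miR-23b-5p, miR-27a-5p nor any of the 3 products of the hairpins opposite Mir24 (miR-3074-5p, miR-3074-1-3p and miR-3074-2-3p) was detected on any array.

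MiRNAs with a related seed can share targets with the members, and are shown for the 2 that are most alike:
miR-128-3p: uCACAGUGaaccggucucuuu
miR-6369: uGGCUCAGuucaguguuggugag

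The first 8 bases of miR-128-3p, a miRNA best known from brain, equal 8 bases of miR-27 from its base 2. It was detected on 4 arrays. Its log2 intensity was 7.78, 7.82 and 8.04 in saline and 7.15, 7.71 and 8.03 in WT-BLM mice. WT-BLM mouse 1, where the spots were 3.54-fold apart, was the lowest, and the difference was -0.25 (standard error 0.28, limma adjusted p = 1). Another 8 array miRNAs share bases 2 to 7 with miR-24-3p or miR-27, and none of them was tested. Of these, miR-6369 has the first 13 bases of miR-24-3p. It was detected on no array, and its authors' intensity was 0 to 8.

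**Figure D4:**
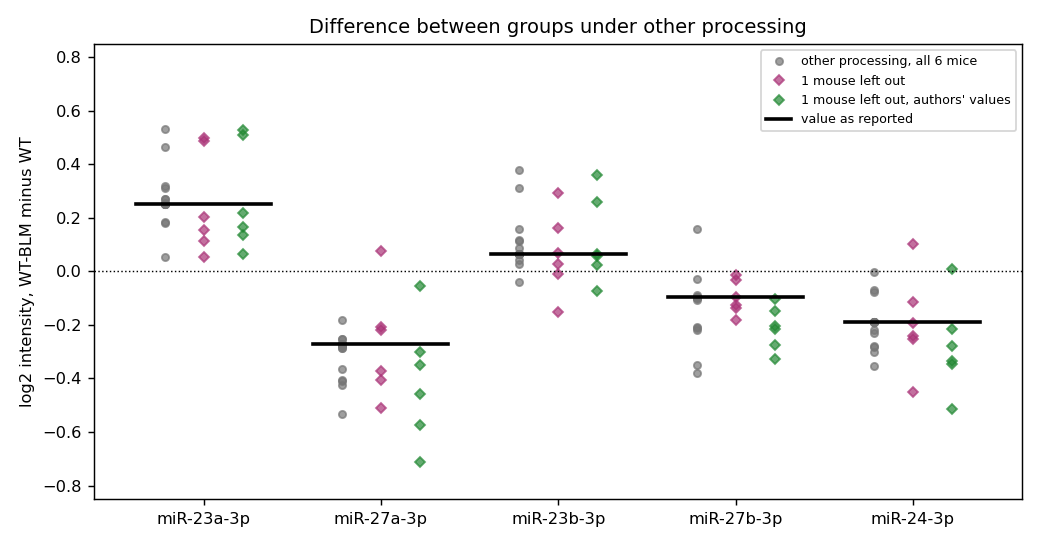
Difference in log2 intensity between WT-BLM and saline lungs (y axis) for the 5 miRNAs under other processing with all 6 mice (grey), with 1 mouse left out (purple) and with 1 mouse left out of the authors' values (green). Black lines mark the values as reported. The points of miR-23a-3p all lie above 0, from 0.054 to 0.53, and those of the other 4 lie on both sides of it.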

How the data were processed

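RNA from the lungs of 6 mice, 3 in each group, was tailed, tagged, stained with 1 dye and hybridized by an array service. For each of 5022 spots per array the authors deposited a median intensity, without background subtraction, with the spread within the spot, and a table of normalized intensities on a linear scale whose method is not given in the sources used here. Across 116 probes detected on all arrays, log2 of that table and the values computed here had r of 0.975 to 0.998 per array, where probes are not independent replicates.

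Spot intensities were background corrected with normexp (offset 50, fitted on all spots), control spots were removed, log2 values were quantile normalized and the 2 spots of a probe were averaged, in R 4.3.3 with limma 3.58.1. A filter kept 275 probes, those detected on 3 or more arrays, and lmFit and eBayes were run on them with Benjamini-Hochberg adjustment over all. Intervals of the a minus b changes came from the SDs of both groups with a t distribution. An offset shrinks fold changes of dim probes. The number of arrays limits the precision. Groups came from the sample titles. The labels do not say whether the mice were processed together, and no slide or scan is named. Nor do they say whether mice with the same number were paired. The members, the lists of other arms, related seeds and markers, and the tests were chosen with earlier results of these data known. The named miRNAs are the members, 9 other arms, miRNAs with a related seed, the 2 most correlated miRNAs per member, and marker lists. The steps were also run on simulated data with planted changes far larger than the members' differences, which does not show whether changes of that smaller size would be found. The methods' t-test, paired and unpaired, and other processing were tried as alternatives.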

Additional observations from a re-analysis of the deposited data

How the results depend on the processing

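Of the alternatives, 23 were planned (6 of them leaving out a mouse) and 6, the authors' values with each mouse left out, were chosen after seeing the data. No block by slide or scan could be fitted, since neither is named. No miRNA had an adjusted p under 0.05 under any of them, and for the 5 members the lowest adjusted p was 0.74. The count of miRNAs with an unadjusted p under 0.05, 5 in all, was 8 with the first spot only, with cyclic loess, with the replicate block and with scaling to the 75th percentile of probes detected on all arrays. It was 2 with the second spot only and with the 75th percentile of all probes, 14 with array weights, 46 with no filter and 1 with probes detected on all 6 arrays, where more or fewer were tested, and 9 with the methods' paired t-test. Over single mice left out it lay between 1 and 20, with 11 without saline mouse 1, 20 without saline mouse 3, 3 without WT-BLM mouse 1 and 1 without WT-BLM mouse 3. In the authors' values these 4 omissions gave 10, 20, 2 and 1, and that of WT-BLM mouse 2 gave 3.

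The replicate block, by mouse numbers that are not said to pair animals (correlations of deviations 0.16, 0.028 and 0.073), left every member uncalled, with miR-27b-3p at -0.095. After scaling to the 75th percentile the median of all miRNAs was -0.22 (probes detected on all arrays) or 0.13 (all probes), and relative to it miR-23a-3p was 0.40 and miR-27a-3p was -0.31 under both. The signs of all 5 were the same under every normalization. Values turned for miR-27b-3p with the first spot only (0.16), for miR-23b-3p with array weights (-0.039), and for miR-27a-3p minus miR-27b-3p with the second spot only (0.095), for causes not tested. With single mice left out, miR-23a-3p lay between 0.055 and 0.50 (authors' values 0.064 to 0.53), miR-27a-3p between -0.51 and 0.078 (-0.71 to -0.053), miR-23b-3p between -0.15 and 0.29 (-0.073 to 0.36), miR-27b-3p between -0.18 and -0.013 (-0.33 to -0.10) and miR-24-3p between -0.45 and 0.10 (-0.51 to 0.0091). The miR-23 pair lay between 0.13 and 0.32 (0.10 to 0.25) and the miR-27 pair between -0.33 and 0.11 (-0.44 to 0.093). The mice whose omission turned a value were WT-BLM mouse 3 for miR-27a-3p (not in the authors' values), miR-24-3p and the miR-27 pair, and WT-BLM mouse 2 and saline mouse 3 (-0.010, not in the authors' values) for miR-23b-3p.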
